A study of Mus musculus with 14 samples.

Results

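In the white nodules of cKO mice in which 1 B cell clone had expanded, a small number of cells carried a B cell receptor (BCR) without the receptor chains of that clone. These non-clonal B cells are described here. In each of the 5 nodules with BCR sequencing, the commonest heavy chain and the commonest light chain were found, a chain being defined by its V gene, J gene and CDR3 nucleotides, and the cells that carried neither were taken if they were also in the RNA library with at most 10% mitochondrial UMIs (unique molecular identifiers, each counting 1 captured RNA molecule). The rule gave 139 cells of the 8718 BCR-called cells that passed, in a series of 77442 cells. The receptor alone chose the cells, so their lack of the clone's chains is no result. Cells that carried either of the clone's commonest chains are called clone cells.

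The nodules came from C57BL/6J cKO mice (Eif3e fl/fl Cγ1Cre Rosa26-YFP LSL), in which Cre driven by the Cγ1 gene deletes Eif3e, a subunit of the translation initiation complex eIF3, from B cells that have switched the locus on. The labels name no treatment of the animals, which were taken when sick, and no healthy or Cre-only nodule was compared here. The BCR nodules came from the liver of mouse 27 (12 mo), the lung of mouse 29 (12 mo), the spleen of mouse 31 (13 mo), the thymus of mouse 33 (16 mo) and the lung and thymus of mouse 34 (9 mo), with 1 RNA library and 1 receptor library per mouse. The nodules of mice 29, 31, 33 and 34 were primary. The sample of mouse 27 is described by the study as a secondary tumor grown from a transplant of its liver nodule. Transplants went into Rag2-/- mice, which make no B cells of their own, so this sample is of another kind. Mouse, organ and age cannot be told apart.

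A B cell makes its receptor by joining segments at random, V, D and J in the heavy chain and V and J in the light chain. Unrelated B cells nearly always differ in heavy-chain CDR3, whereas the offspring of 1 cell share it and drift apart by somatic hypermutation. A light chain can recur in unrelated cells. Of the distinct chains described below, 16 of 73 light and 2 of 57 heavy chains were also found in another mouse. Naive B cells carry IgM and IgD. After activation a B cell may switch to IgG, IgA or IgE, and a cell that becomes a plasma cell devotes much of its RNA to immunoglobulin and to Jchain, the joining chain of secreted IgM and IgA. B-1 cells are a self-renewing lineage known for a few recurrent receptors, among them IGHV11-2 and IGHV12-3 paired with IGKV14-126 or IGKV4-91, which bind phosphatidylcholine.

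Non-clonal cells made up 11.3% of the BCR-called cells in mouse 29 (41 of 364, 95% Clopper-Pearson interval 8.21 to 15.0%). Mouse 33 came next with 32 of 1116 cells, a share of 2.87% (1.97 to 4.02%). In mouse 34 it was 1.67% (24 cells of 1440, 1.07 to 2.47%), and mouse 31 had the lowest share above 0, 1.05% (42 cells of 4016, 0.755 to 1.41%). In the transplanted tumor of mouse 27 there were 0 of 1782, which allows a share of up to 0.168% by a limit of 3 counts and up to 0.207% by the two-sided interval. This 0 is not comparable with the primary nodules, because the kind of host differed. Over the 4 primary nodules the share was 4.21% ± 4.76 (SD, n = 4). With mouse 27 the mean over 5 was 3.37% ± 4.53 (SD, n = 5), and without mouse 29, which was highest, it was 1.40%. Intervals cover counting error only.

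The cells were not of one kind. They were sorted into 5 exclusive classes, set after the values were seen and applied in the order given. Clone-related cells (34) had a V and J gene pair of the clone's commonest heavy or light chain with another CDR3. Immunoglobulin-rich cells (25) had at least 5% of their UMIs on immunoglobulin genes. The rest had a switched heavy-chain constant region (18), an IgM or IgD constant region (35) or no constant call (27). Each mouse held another mixture of them. Mouse 29 had 17 immunoglobulin-rich cells, 7 unswitched cells and 17 without a constant call. Mouse 31 had 21 unswitched cells, 8 switched cells and 9 without a call, and 2 each of the clone-related and the immunoglobulin-rich class. Clone-related cells were 23 of the 32 in mouse 33, and mouse 34 had 10 switched, 9 clone-related and 5 unswitched cells.

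**Figure D1:**
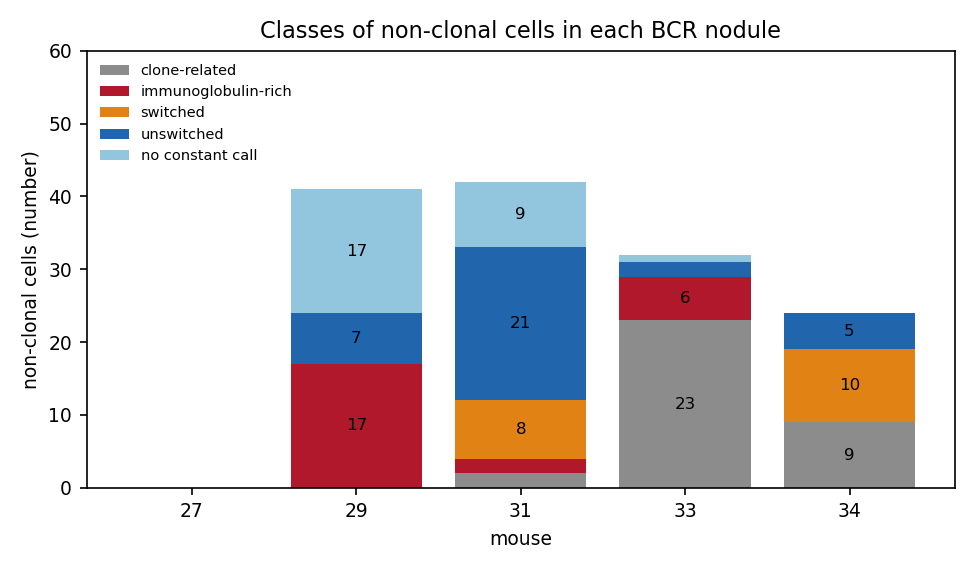
Number of non-clonal cells (y axis) by mouse (x axis), stacked by class; numbers are printed in segments of 3 or more cells. Mouse 27 had none, mouse 29 had 17 immunoglobulin-rich cells, mouse 31 had 21 unswitched cells, and 23 of the 32 cells of mouse 33 were clone-related.

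Markers of B cells were present in most of the 139. Cd79a, a signalling subunit of the BCR, was detected in 31 of 41 non-clonal cells of mouse 29, 38 of 42 of mouse 31, 25 of 32 of mouse 33 and 24 of 24 of mouse 34, together 84.9%. It was found in 98.0% of clone cells and in 8.38% of the reference T cells, taken as cells with at least 2 UMIs of Cd3d, Cd3e and Cd3g and no BCR call. Ms4a1, which encodes the B cell surface protein CD20, was detected in 14, 28, 21 and 19 cells in the same order, 59.0% in all, against 91.4% of clone cells and 8.45% of T cells. Ighm marked only a part of the non-clonal cells, at 37.4% of cells against 1.07% of clone cells and 5.03% of T cells. Clone cells were deeper than non-clonal cells in each nodule and T cells were shallower, with the median depths given with Ighd.

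Part of the first class goes against the name non-clonal. Of the 34 clone-related cells, 12 shared V and J only in the heavy chain, 16 only in the light chain and 5 in both, and 1 carried another heavy chain, IGHV6-6 with IgM, beside a light chain of the clone's V and J genes. Of the 16 cells known by the light chain alone, 15 were in mouse 33 and had IGLV2 with IGLJ2. The exact light chain of the mouse 33 clone was also carried by a non-clonal cell of mouse 29. Among the 34 cells the light-chain CDR3 had the clone's length in 22 cells and then differed from it at 1 or 2 bases, with 1 difference in 17. The heavy-chain CDR3 had the clone's length in 11 cells, with 1 to 4 differences. The sequences below are shown because they show how near these CDR3 sequences stood to the clone's; capitals mark the bases that differ from the clone, and in the first line of mouse 33 the 3 bases that its relative lacked.
mouse 31 clone, IGHV1-18 IGHJ4, 3278 cells: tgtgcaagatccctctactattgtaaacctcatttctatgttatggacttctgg
mouse 31 relative, 1 cell: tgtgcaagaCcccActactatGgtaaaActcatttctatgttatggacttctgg
mouse 33 clone, IGHV9-3 IGHJ3, 273 cells: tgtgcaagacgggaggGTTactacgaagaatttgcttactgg
mouse 33 relative, 6 cells: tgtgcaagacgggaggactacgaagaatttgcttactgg
mouse 33 clone, IGLV2 IGLJ2, 1083 cells: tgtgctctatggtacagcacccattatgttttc
mouse 33 relative, 4 cells: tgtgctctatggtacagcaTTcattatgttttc
mouse 33 relative, 4 cells: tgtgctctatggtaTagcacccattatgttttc
mouse 33 relative, 2 cells: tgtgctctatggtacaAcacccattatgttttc
mouse 34 clone, IGHV9-1 IGHJ2, 1033 cells: tgtactagagaggatgactattgg
mouse 34 relative, 7 cells: tgtactagagaggTtgactattgg

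The third light-chain sequence of a mouse 33 relative, in 2 cells, was also found in 1 non-clonal cell of mouse 31, an IgA cell with IGHV1-26. The other light-chain sequences of clone-related cells were found in 0 cells of other mice. Whether a cell with such a lambda chain alone descended from the clone was not tested.

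In 17 of the 34 cells (1 in mouse 31, 8 in mouse 33 and 8 in mouse 34) a chain of the cell was also found in clone cells. Their constant calls were IgA in 11, IgE in 4 and IgM in 1, with none in 18. No clone-related cell had a UMI of Ighm, Ighd or Ly6c2 in the RNA library, at a median depth of 8304 UMIs. Ms4a1 was found in 28 of the 34, against 5 of 25 immunoglobulin-rich cells. When chains were compared by V and J gene alone, these shared chains counted as the clone's, and the non-clonal share fell from 2.87% to 0.807% in mouse 33 and from 1.67% to 1.04% in mouse 34.

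The other 105 cells are called unrelated from here on, because no recovered chain had the V and J genes of the clone's commonest chains. Descent from the clone was not tested for those without a recovered heavy chain. The 105 cells had diverse receptors. A heavy chain was recovered in 77 of them, with 57 distinct rearrangements from 31 V genes; 49 rearrangements were seen in 1 cell each and 8 in 2 or more, with a largest family of 8 cells. IGHV1 genes, the largest mouse V gene family, were used by 31 of the 77 cells. The heavy CDR3 had a median of 45 bases (24 to 69). Light chains were recovered in all but 4 of the 105, and 7 cells had a lambda chain. Of 73 distinct light chains 16 were also found in another mouse, and of 57 heavy chains 2. In mouse 29, 5 light-chain-only cells used IGKV2-137, 3 of them with 1 rearrangement. Another of the 5, with IGKJ4, carried a chain that was also in 4 clone cells of its nodule, the 1 such case among the 105.

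The 25 immunoglobulin-rich cells stood apart in their RNA. Immunoglobulin genes took a median of 31.6% of their UMIs (8.31 to 52.6%). The lowest were at 8.31 and 9.78%. Just under the 5% limit were an IgG1 cell of mouse 31 at 3.84%, with 77 UMIs of Jchain, 9 of Xbp1 and 3 of Prdm1, and an IgM cell of the same mouse at 3.68%. The first was classed as switched although it carried these plasma cell genes. Jchain was found in 25 of 25 with 1 to 621 UMIs. Ighm was found in 19 of 25 with a median of 290 UMIs. Xbp1 and Prdm1, transcription factors of plasma cell differentiation, were found in 20 and 13 of them. Fcer2a, which encodes CD23 of mature follicular B cells, was found in none, and Ms4a1 in 5. Their constant calls were IgM in 17, IgA in 4, and IgG1 and IgE in 1 each. The IgE cell, in mouse 29, had 161 Ighe UMIs. The rule did not use gene expression, but the class did, so the immunoglobulin values describe it and support nothing.

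**Figure D2:**
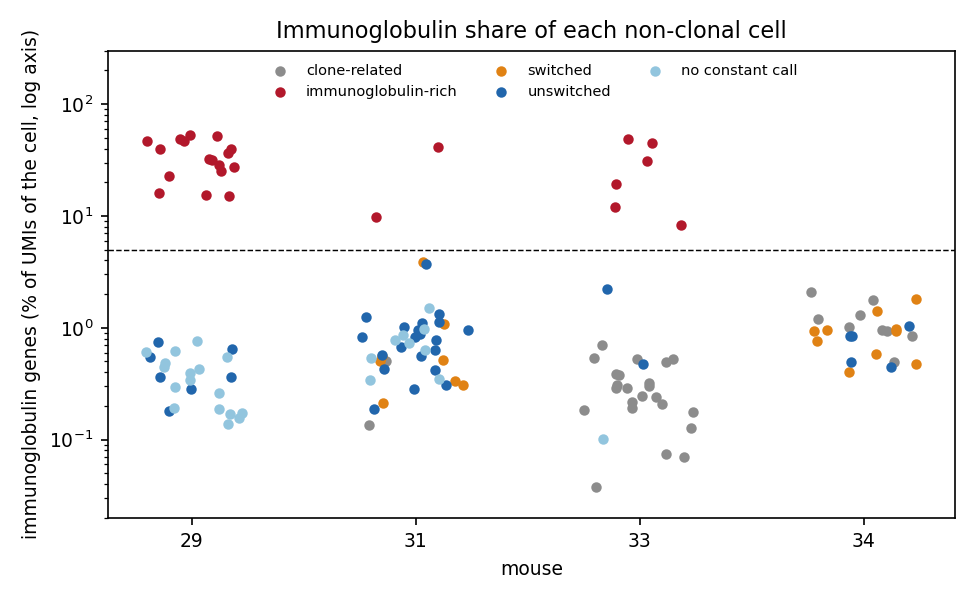
Each point is 1 non-clonal cell: its immunoglobulin share in percent of UMIs (log y axis) by mouse (x axis, with random sideways spread), coloured by class; the dashed line marks 5%. The 25 immunoglobulin-rich cells lay between 8.31 and 52.6%, and all other cells at or below 3.84%.

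Ly6c2, a surface antigen of monocytes and of some T cells and plasma cells, was almost confined to these cells among the non-clonal ones: they held 229 of the 232 UMIs. It was found in 7 of 17 such cells in mouse 29, 1 of 2 in mouse 31 and 5 of 6 in mouse 33. In clone cells it was found in 0.633%, and in 18.1% of the reference T cells. That T cell share pools the mice. After every cell was thinned to the same depth, as given with Ighd, T cells had Ly6c2 in 0.574% in mouse 29 and 0.367% in mouse 31. The shares were 14.8% in mouse 33 and 4.31% in mouse 34. T cells therefore give no background level for this gene in mouse 33, which held 176 of the 229 UMIs. In mouse 29 the thinned share of immunoglobulin-rich cells was 13.3% (2 of 15 cells). Lyz2, a myeloid marker, had 10 or more UMIs in 3 non-clonal cells, all of mouse 33, and 2 of these were immunoglobulin-rich; the third had 53 UMIs of Lyz2 and no UMI of the B cell genes used as a gate. The part of other cells' RNA in the Ly6c2 level was not tested.

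The 35 unswitched cells had an IgM constant call in 32 and an IgD call in 3. They were shallow, with a median of 2007 UMIs. Cd79a was found in 33 of 35 and Ighm in 24. Jchain was found in 0 of 35. Fcer2a was found in 11 of the 35.

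Ighd, which marks naive B cells, was detected in 9 non-clonal cells, and all 9 were unswitched (25.7% of 35). Mouse 29 had 3 such cells among 41 (7.32%, interval 1.54 to 19.9%). Mouse 31 had 5 among 42 (11.9%, interval 3.98 to 25.6%). None of the 32 cells of mouse 33 had it (two-sided upper bound 10.9%), and 1 of the 24 cells of mouse 34 did (4.17%, interval 0.105 to 21.1%). The mean was 5.85% ± 5.03 (SD, n = 4). Clone cells had it in 0 of 323, 1 of 3974, 0 of 1084 and 5 of 1416. Reference T cells, which should lack it, had it in 0 of 1199, 4 of 589, 1 of 3040 and 1 of 855. Median depths in the order of mice 29, 31, 33 and 34 were 5973, 2036, 8261 and 9447 UMIs in non-clonal cells, 11273, 11200, 13763 and 11280 in clone cells and 1695, 1893, 4124 and 3091 in T cells. The intervals of mice 29 and 31 lay above the shares in both groups, and those of mice 33 and 34 did not exclude them. At least 2 UMIs were seen in 2 cells, both of mouse 31. After thinning every cell to 1000 UMIs, 1 of 38, 1 of 37, 0 of 32 and 0 of 24 remained, so most cells with IgM could not be called IgD-positive or negative at this depth.

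**Figure D3:**
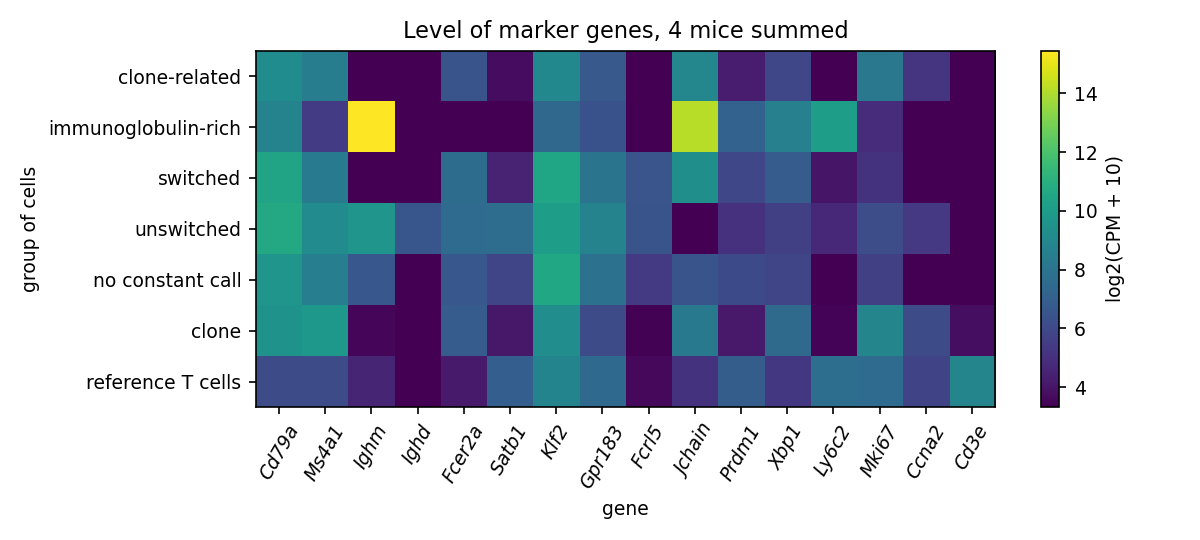
Level of 16 marker genes (x axis) in the 5 classes of non-clonal cells, in clone cells and in reference T cells (y axis), as log2 of CPM + 10 (CPM, the share of UMIs scaled to 1e+06), with the cells of 4 mice summed. Ighd was seen only in unswitched cells among the classes, Jchain and Ly6c2 were highest in immunoglobulin-rich cells, and Mki67 was highest in clone and clone-related cells. Most Mki67 UMIs of the clone-related class, 59, were in a single cell of mouse 34.

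Receptors with V segments of phosphatidylcholine-binding B-1 cells were found in 10 cells: 9 by the heavy chain and 1 by IGKV4-91 alone, paired with IGHV1-64. The 9 were 11.7% of the 77 unrelated cells with a heavy chain, with 2 of 23 in mouse 29, 3 of 32 in mouse 31, 4 of 7 in mouse 33 and 0 of 15 in mouse 34, and 8 of them had both chains of the set. All 10 were IgM, and 4 were immunoglobulin-rich. The CDR3 sequences are printed because the V segments recurred between animals, and the IGHV11-2 pair of CDR3 sequences recurred in mice 29 and 31. Each IGHV12-3 CDR3 was seen in a single mouse. Capitals mark where IGHV12-3 rearrangements differed from one another, and in IGHV11-2 of mouse 33 and in its light chain the bases that differed from the other pair of mice; its heavy chain was 3 bases longer, and the 9 bases between the shared ends are in capitals.
mouse 29, IGHV11-2 IGHJ1: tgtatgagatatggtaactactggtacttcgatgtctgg
mouse 31, IGHV11-2 IGHJ1: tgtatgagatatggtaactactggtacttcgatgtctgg
mouse 33, IGHV11-2 IGHJ1: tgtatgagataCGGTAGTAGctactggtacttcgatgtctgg
mouse 29, IGKV14-126 IGKJ2: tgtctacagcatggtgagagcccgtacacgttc
mouse 31, IGKV14-126 IGKJ2: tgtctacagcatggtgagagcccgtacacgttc
mouse 33, IGKV14-126 IGKJ4: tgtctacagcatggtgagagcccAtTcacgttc
mouse 29, IGHV12-3 IGHJ1: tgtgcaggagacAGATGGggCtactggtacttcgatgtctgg
mouse 31, IGHV12-3 IGHJ1: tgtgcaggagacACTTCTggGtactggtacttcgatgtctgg
mouse 31, IGHV12-3 IGHJ1: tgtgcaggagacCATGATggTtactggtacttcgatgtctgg
mouse 33, IGHV12-3 IGHJ1, 2 cells: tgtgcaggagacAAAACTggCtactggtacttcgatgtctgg
mouse 33, IGHV12-3 IGHJ1: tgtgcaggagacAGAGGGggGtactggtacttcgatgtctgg

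The IGHV11-2 cells of mice 29 and 31 had the same CDR3 nucleotides in both chains. Their barcodes differed and their V regions differed at 2 of 285 bases, and the V regions of mice 31 and 33 were identical. All IGHV12-3 V regions compared were identical over 285 bases, including those of immunoglobulin-rich cells with up to 3221 contig UMIs. Cd5, a surface protein of B-1a cells, and Zbtb32, a transcription factor of B-1 cells, had no UMI in any of the 10 cells, whose depth was 929 to 17104 UMIs. The B-1 label therefore rests on the receptors.

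Switched cells were counted over all non-clonal cells with a heavy constant call. Mouse 29 had 4 switched calls among 23 (17.4%, interval 4.95 to 38.8%), mouse 31 had 12 among 33 (36.4%, interval 20.4 to 54.9%) and mouse 33 had 5 among 13 (38.5%, interval 13.9 to 68.4%). Mouse 34 had the highest share, 18 among 23 (78.3%), and the mean was 42.6% ± 25.6 (SD, n = 4). Clone-related cells made part of this: without them the counts were 4 of 23, 10 of 31, 0 of 7 and 10 of 15, with a mean of 29.1%. Without the immunoglobulin-rich cells mouse 29 had 0 of 7. The calls over all 139 cells were IgM in 50, IgA in 27, IgG1 in 7, IgE in 5 and IgD in 3, with none in 47.

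Of the 18 switched cells 16 belonged to an IgG1 family of mouse 31 or to 1 of 2 IgA families of mouse 34. Their CDR3 sequences are printed because families of 8 cells with 1 heavy chain were the largest among the unrelated cells. Capitals mark the base that differed between the light chains of the IgG1 family.
IgG1 family, mouse 31, IGHV5-6 IGHJ4, 8 cells: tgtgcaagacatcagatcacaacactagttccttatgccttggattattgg
IgG1 family, mouse 31, IGKV10-94 IGKJ2, 11 cells: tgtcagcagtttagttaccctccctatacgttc
IgG1 family, mouse 31, IGKV10-94 IGKJ2, 2 cells: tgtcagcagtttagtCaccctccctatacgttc
IgA family, mouse 34, IGHV5-17 IGHJ4, 8 cells: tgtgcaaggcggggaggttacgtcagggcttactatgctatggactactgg
IgA family, mouse 34, IGKV14-111 IGKJ4, 8 cells: tgtctacagtatgatgagttattcacgttc
IgA family, mouse 34, IGHV1-82 IGHJ4, 2 cells: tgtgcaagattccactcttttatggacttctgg
IgA family, mouse 34, IGKV14-111 IGKJ4, 2 cells: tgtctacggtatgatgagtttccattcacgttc

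The IgG1 family held 13 cells, 8 with the heavy chain and 5 with the light chain only, at a depth of 634 to 12278 UMIs. Its 7 constant calls were all IgG1, and no other non-clonal cell had that call. In the RNA library Ighg1 had 18 UMIs in 8 of the 13 cells and Ighm had none. Cd79a was found in 13 of 13 and Fcer2a in 5, with 23 UMIs in all. Jchain had 100 UMIs, of which 77 were in the cell at 3.84% immunoglobulin described above. The V region of its heavy chain differed at 21 and at 31 of 285 bases from the IgM rearrangements of IGHV5-6 in mice 29 and 34, which differed from each other at 11. Germline alleles were not examined, so how many of these differences were mutations was not tested. Pairs of IgM or IgD rearrangements that shared a V gene, among unrelated cells, differed at a median of 1.0 base (0 to 20, 40 pairs). Pairs with a switched member differed at a median of 10 (0 to 31, 16 pairs). The pairs are not independent, because the same rearrangement enters several of them. Those of IGHV12-3, all at 0 differences, were in the IgM or IgD set alone. The medians therefore depend on which V genes formed pairs and give no baseline for the IgG1 family.

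The IgA cells of mouse 34 fell into a family of 8 and a family of 2, with the same light-chain V and J genes but different light CDR3 lengths. Igha was found in 10 of 10 cells and Ighm in none. Cd79a was at 1346 CPM in them, and Ms4a1 was at 103.5 CPM against 1021 CPM in the clone cells of that nodule. Fcer2a had no UMI in these 10 cells. Jchain was at 28.2 CPM against 1025 CPM in the clone. These are sums over the cells of 1 mouse without a replicate. The other 2 switched cells, in mouse 31, were IgA cells with IGHV1-26 and IGLV2, but their CDR3 differed in both chains.

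Cells without a constant call were mostly light-chain contigs alone. There were 26 of these, 17 in mouse 29 and 8 in mouse 31. Ighm was detected in 9 of the 26, Ighe in 3, and Ighd in none. The 3 cells with Ighe were in mouse 29, and whether they descended from its clone was not tested. The class held 18 cells of 27 with at least 2 UMIs of the B cell gate genes, against 32 of 35 unswitched and 18 of 18 switched cells. Over all classes 17 non-clonal cells were under that limit, 13 of them in mouse 29.

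The Eif3e level of non-clonal cells, in CPM over the UMIs outside the immunoglobulin genes, was 160.8 in mouse 29 (exact Poisson interval 109.3 to 228.3) against 244.0 in its clone cells (228.7 to 260.1). In mouse 31 it was 109.6 (61.3 to 180.7) against 170.7, in mouse 33 213.6 (161.8 to 276.7) against 222.8, and in mouse 34 171.3 (124.0 to 230.8) against 190.7. With all classes together it was lower in the non-clonal cells of each mouse, and the intervals of the groups were just apart in mouse 29 alone. The classes of mouse 29 differed. Immunoglobulin-rich cells had 84.05 (33.8 to 173.2, 7 UMIs) and unswitched cells 85.5 (10.4 to 308.9, 2 UMIs). Cells without a constant call had 255.5 (160.1 to 386.8, 22 UMIs), so a lower level was not seen in every class of that mouse. The eIF3 subunit genes together were lower in the non-clonal cells of mouse 29 too, at 2386 CPM against 3728 CPM. As a share, which sets Eif3e against the other subunits, the difference was within the counting interval. Eif3e took 5.66% of the UMIs of 12 eIF3 subunit genes in non-clonal cells (interval 4.80 to 6.62%), 5.19% in clone cells (5.11 to 5.27%) and 6.22% in reference T cells (6.04 to 6.40%). These shares pool the mice, and mouse 31 gave 170237 of the 310985 eIF3 UMIs of clone cells. By mouse, non-clonal cells had 6.74% against 6.55% in clone cells of mouse 29 and 6.34% against 6.005% in mouse 33. In mice 31 and 34 they had 4.63% against 4.83% and 4.79% against 5.07%. The IgG1 family had 5 Eif3e UMIs of 188 eIF3 UMIs, 2.66% (0.869 to 6.10%), against 4.83% (4.73 to 4.93%) in the clone of the same nodule, a difference within the counting interval. Which exons the counted reads covered was not given in the sources used here, so the level does not check the deletion.

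Non-clonal cells were then compared with clone cells of the same nodule across all genes outside the immunoglobulin loci, on UMI counts summed per mouse, with mouse as a block (mice 29, 31, 33 and 34). Of 9215 genes tested, 0 passed an adjusted p of 0.05 in edgeR's quasi-likelihood test with Benjamini-Hochberg adjustment (0.0% called). The smallest adjusted p was 0.0927, and 1121 genes (12.2%) had an unadjusted p under 0.05. DESeq2 called 208 on the same sums, 169 higher (1.83%) and 39 lower (0.423%), together 2.26% of the genes tested. Without the 34 clone-related cells, edgeR called 88 of 9196 genes, 57 higher and 31 lower in unrelated cells (0.957% called); 75 of the 88 were also among the 208 of DESeq2. Only 9 unrelated cells of mouse 33 entered that comparison, fewer than the 10 per mouse required otherwise. Without mouse 33 there were 13 calls of 9422 genes, 10 higher and 3 lower (0.138% called), and 10 of the 13 were among the 88. Without mouse 29 there were 247, without mouse 31 151 and without mouse 34 103. Of 19 genes of the 88 named below, 5 passed without mouse 33: Mki67, Ly6c2, Gpr183, Abca1 and Apoe. The other 14 kept their direction, with edgeR adjusted p from 0.0527 to 0.294. Without mouse 34, 6 of the 19 did not pass (Top2a, Gcsam, Ctla4, Gpr183, Bank1 and Fcer1g). Genes named below from this comparison were chosen after their values were seen. Their levels are CPM over the UMIs of all genes, immunoglobulin genes included, scaled by edgeR's TMM factors. They are in the order of mice 29, 31, 33 and 34.

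Genes of cell division were lower in unrelated cells. Of the 16 proliferation genes 6 were lower (1 without mouse 33) and 0 higher, with a median log2 fold change of -2.06 against -0.22 over all genes tested (0.337% of all genes were called lower). Mki67, a marker of cycling cells, was at 20.7, 27.1, 48.9 and 49.8 CPM in unrelated cells and at 156.9, 503.4, 259.8 and 483.0 CPM in clone cells. Each mouse had the lower value in the unrelated cells, and the groups did not overlap (log2 fold change -3.23, SE 0.42, edgeR adjusted p 0.0135). Stmn1, a microtubule regulator of dividing cells, was at 5.18, 33.9, 0 and 132.8 CPM against 175.1, 247.2, 172.7 and 505.2 CPM. Here too the unrelated cells were lower in each mouse (log2 fold change -3.14, edgeR adjusted p 0.0257). Top2a (-1.94), Rrm2 (-3.34), Ube2c (-3.38) and Ccna2 (-3.46) completed the 6. Rrm2, Ube2c and Ccna2 had at most 7 UMIs in any of the unrelated sums, so their fold changes depend on few molecules. Gcsam, a germinal center B cell gene, was the 1 lower gene of 10 in its list; it had 9 UMIs in the unrelated cells of mouse 31 and 0 in the other 3 mice (log2 fold change -3.62).

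**Figure D4:**
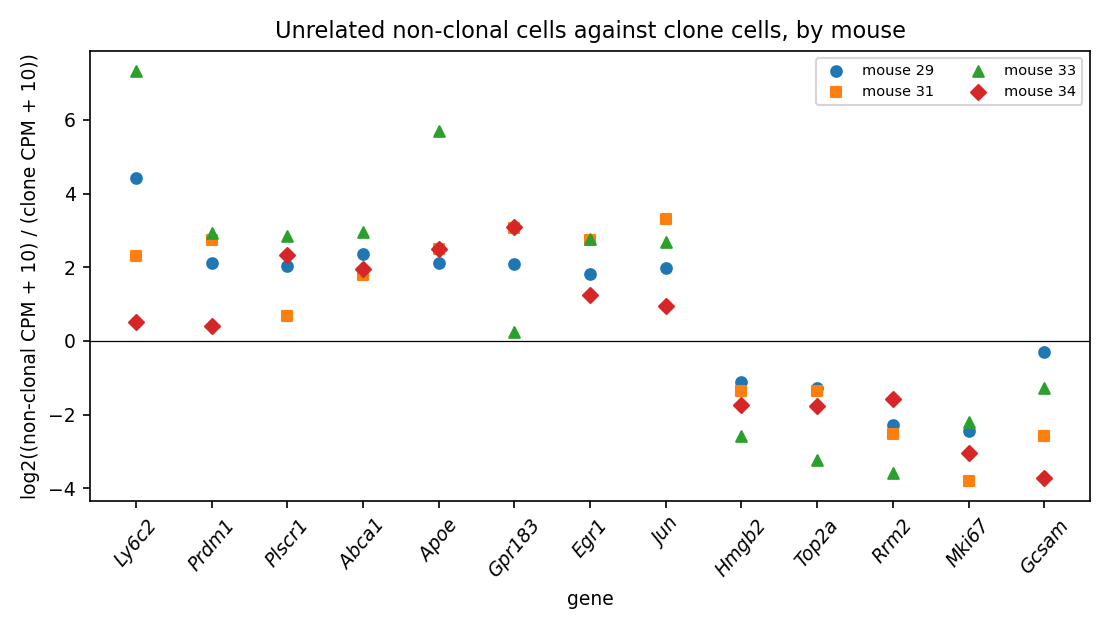
Difference between unrelated non-clonal cells and clone cells for 13 named genes (x axis) in each of 4 mice (symbols), as log2 of the ratio of CPM + 10 (y axis). These CPM are TMM-scaled. Mki67, Top2a, Rrm2 and Hmgb2 were lower in all 4 mice; Ly6c2 ranged most widely between mice, and Gpr183 of mouse 33 lay near 0.

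Ly6c2 and Prdm1 were the 2 higher genes of 14 tested in the plasma cell list (0.62% of all genes were called higher). Prdm1 was at 77.8, 74.6, 183.4 and 22.1 CPM against 10.1, 2.74, 15.4 and 14.5 CPM in clone cells, a log2 fold change of 3.09 with an SE of 0.62 (edgeR adjusted p 0.0397). Ly6c2 was at 254.0, 40.7, 2151 and 5.53 CPM against 2.22, 0.185, 3.56 and 0.820 CPM (log2 fold change 7.20, SE 0.86, edgeR adjusted p 0.0089). Mouse 33 was highest and mouse 34, with 1 UMI, lowest. All clone levels of Ly6c2 were too low for the filter on low counts, so it was tested through the unrelated cells alone. It is also a marker gene chosen with earlier results of these data known, so its call describes the cells and supports nothing. Jchain had a log2 fold change of 4.54 but did not pass (edgeR adjusted p 0.307). In the B-1 cell list 2 of 14 were higher: Plscr1, a phospholipid scramblase (3.51), and Ctla4, an inhibitory receptor (2.81). Ctla4 had 36 of its UMIs in mouse 34, where no heavy chain was of the B-1 kind.

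Other called genes had other roles. Gpr183, a receptor that guides B cells to the outer follicle, was at 114.1, 535.6, 183.4 and 121.7 CPM against 19.2, 54.7, 154.5 and 5.49 CPM (log2 fold change 2.71, SE 0.58, edgeR adjusted p 0.0474). It was higher in each mouse, though by little in mouse 33. Egr1 and Jun, immediate early transcription factors, were also higher (2.22 and 2.26), as were Abca1, a cholesterol transporter (2.84), and Bank1, a scaffold of BCR signalling (3.92). Hspa1a, a heat shock gene, was higher as well (3.53); its UMIs were 84, 52, 0 and 1 in the order of mice.

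Leaving out the immunoglobulin-rich cells too left mice 29, 31 and 34 and 45 called genes of 9483, 29 higher and 16 lower (0.475% called, 0.169% lower). Of these, 32 were among the 88. Leaving out 1 mouse gave 115 to 229 calls, 229 without mouse 29, 115 without mouse 31 and 177 without mouse 34. Klf2 did not pass without mouse 29 (edgeR adjusted p 0.149), nor Bcl2a1d and Fcrl5 without mouse 34 (0.0851 and 0.055). Ly6c2 was no longer tested, and Prdm1 (2.02) and Jchain (-1.17) did not pass, with edgeR adjusted p of 0.500 and 0.849. The naive and follicular list had 2 of 18 genes higher (0.306% of all genes were called higher) and a median log2 fold change of 1.66, against -0.15 over all genes. Satb1, a chromatin organizer of resting lymphocytes, was at 75.8, 135.1 and 43.7 CPM against 6.88, 0.177 and 0.839 CPM in clone cells, a log2 fold change of 6.11 (edgeR adjusted p 0.0223). It entered the test through the unrelated cells, because its clone levels in mice 31 and 34 were too low for the filter on low counts. Klf2, which keeps lymphocytes quiescent and recirculating, was at 522.3, 2893 and 830.9 CPM against 158.5, 953.7 and 308.9 CPM (log2 fold change 1.58, edgeR adjusted p 0.0340). Both were higher in 3 of 3 mice. Fcer2a of the same list (1.89) did not pass. Bcl2a1b and Bcl2a1d, survival genes that resemble each other closely and may share reads, were higher (4.84 and 3.24). Fcrl5, of innate-like and memory B cells, was higher as well (6.84), on 1, 4 and 21 UMIs in mice 29, 31 and 34. So large a fold change on so few UMIs leaves low clone levels, so Fcrl5 probably also entered the test through the unrelated cells. The Fcrl5 call describes the cells and supports nothing. Mki67 (-3.49) and Stmn1 (-2.63) remained lower, the 2 of 16 proliferation genes that passed.

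**Figure D5:**
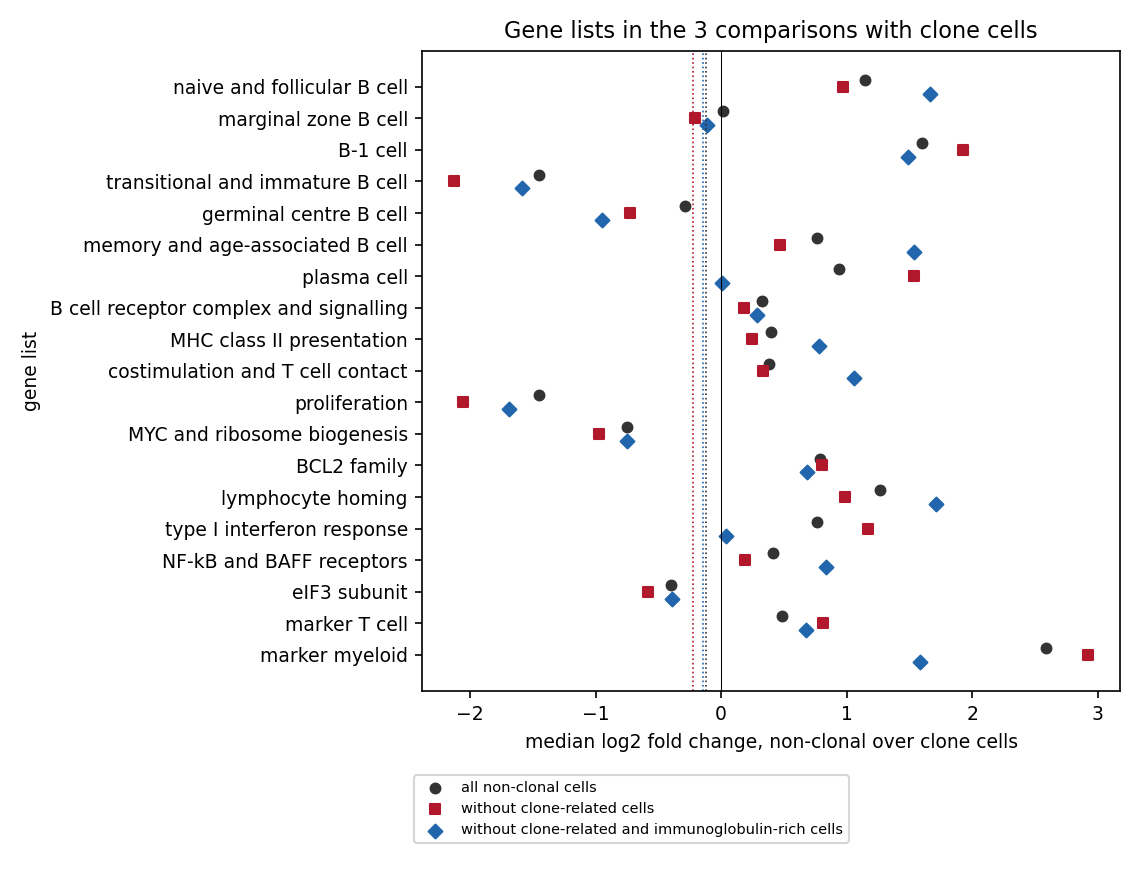
Median log2 fold change of non-clonal over clone cells (x axis) for 19 gene lists (y axis) in 3 comparisons (symbols); dotted lines are the medians over all genes tested. Proliferation lay at -2.06 without clone-related cells and at -1.69 without immunoglobulin-rich cells as well, and the naive list at 0.97 and 1.66.

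Other lists had few called genes, though some medians were as large as that of the naive list. In the unrelated comparison the type I interferon list had a median of 1.17 (1 of 11 higher, Ly6c2). Lymphocyte homing had 0.99 (1 of 11 higher, Gpr183), and MYC and ribosome biogenesis -0.97 (0 of 11). The B-1 and plasma cell lists had 1.93 and 1.54, against -0.22 over all genes, of which 0.62% were called higher. Of 10 MHC class II genes tested 0 passed in the unrelated comparison, with a median of 0.25, and of 14 eIF3 subunit genes 0 passed, with a median of -0.58. Myeloid marker genes had 2 of 7 tested higher, Apoe and Fcer1g, with a median of 2.92. Their sum over 12 genes was 2066, 157.1, 1719 and 173.6 CPM in non-clonal cells against 664.1, 67.1, 110.5 and 72.2 CPM in clone cells, and 3116, 1276, 432.6 and 887.4 CPM in reference T cells. The 12 T cell markers summed to 159.9, 135.7, 34.7 and 106.6 CPM against 104.9, 13.9, 59.5 and 137.4 CPM in clone cells. Myeloid genes were thus present in all 3 groups of cells, and their part in Apoe, Fcer1g and the other higher genes was not tested.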

How the data were processed

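White nodules were dissociated and dead cells were removed, and each was sequenced as 1 single-cell RNA library and 1 receptor library. The files deposited by the authors were used: UMI counts per gene and cell, as raw whole numbers, and tables of assembled receptor contigs with V, J and constant genes, CDR3 nucleotides and UMI counts. The submitters' processing notes name GRCm38 and mm10. The aligner and annotation behind the counts were not given in the sources used here, and the methods describe a 3′ kit for RNA and a 5′ kit for receptors although both libraries share cell barcodes.

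Of 154 receptor-called non-clonal cells, 15 had no RNA barcode that passed. The limits were at most 10% mitochondrial UMIs, at least 201 UMIs and at least 101 genes. Libraries held 7505 to 14098 cells. The commonest chain was counted over cells. No doublet caller was run; a doublet of a clone cell and another B cell carries the clone's chain and was counted as a clone cell. Of the 74042 barcodes over all libraries 3307 were in more than 1 library, including those of 18 non-clonal cells, and 0 non-clonal cells had a called barcode 1 base away. The B cell gate was at least 2 UMIs of the B cell marker genes. Levels (CPM) were counts divided by the sum of the cells and scaled to 1e+06. Those of genes named from the edgeR comparisons were also scaled by edgeR's TMM factors.

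Counts were summed per mouse for non-clonal and for clone cells, without 392 immunoglobulin genes. At least 10 non-clonal cells per mouse were required, a minimum not applied to unrelated cells of mouse 33, of which there were 9. The sums were fitted with edgeR 4.0.16 (TMM, quasi-likelihood, filterByExpr) in R 4.3.3, and fold changes were those of the fit. A prior count of 2 was used only for log ratios per mouse and did not damp these fold changes. Mouse was a block, because both sums of a mouse come from 1 library. DESeq2 1.42.0 was the other tool. Scripts used Python 3.11.15, NumPy 2.4.6, SciPy 1.17.1 and pandas 2.3.3. The edgeR fit was tested on simulated data. Genes to be named were the 10 largest changes in each direction past the threshold in the comparison of all non-clonal cells, the 6 marker genes, and the 4 smallest p of each list; the first part gave 0 genes, and other genes named were chosen after their values were seen. Cells, lists and markers were chosen with earlier results of these data known. The classes were set after values were seen. Alternatives were another tool, no filter on low counts, no block, each mouse left out (in all 3 comparisons), B marker positive cells, clone cells of like depth, immunoglobulin genes kept, and leaving out whole classes. Nothing states that the libraries came from separate litters or cages, and p-values measure the spread between these mice.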

Additional observations from a re-analysis of the deposited data

Results flagged for a closer look

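In 5 values 1 mouse stood apart from the others, by a gap to its neighbour that exceeded Dixon's 95% critical value. Chance gives such a gap in about 1 of 20 groups, and more values were checked than the 5. These were the non-clonal, switched and Ighd shares and, in non-clonal cells, the levels of several genes. The genes were Ighm, Ighd, Cd79a, Ms4a1, Fcer2a, Ly6c2, Jchain, Mki67, Apoe, Prdm1, Gpr183, Klf2, Ccna2 and Plscr1. The share of BCR-called cells that were non-clonal was 11.3% in mouse 29, above the other 4 mice; among the 4 primary nodules alone the gap was 0.822 of the range, under the critical value for 4 samples. Jchain in non-clonal cells was 12350 CPM in mouse 29, above the other 3 mice. Fcer2a in non-clonal cells was 299.9 CPM in mouse 31, and Gpr183 was 571.2 CPM in the same mouse, both above the others. Ccna2 in non-clonal cells was 43.4 CPM in mouse 34, above the others. These CPM are over all UMIs, immunoglobulin genes included, without TMM scaling.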

How the results depend on the processing

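The number of genes called between non-clonal and clone cells, 0 by edgeR, depended on the tool and on which cells entered. It was 208 by DESeq2 (169 higher, 39 lower) and 190 without the filter on low counts (60 higher, 130 lower). It was 88 without clone-related cells (57 higher, 31 lower), 132 when B marker positive cells alone were also required (88 higher, 44 lower), 1 without immunoglobulin-rich cells (1 higher), 45 without both classes (29 higher, 16 lower) and 153 for the same cells by DESeq2 (131 higher, 22 lower). Some of these were chosen after seeing the data: those without immunoglobulin-rich cells and those that combined the B marker gate with the clone-related cells. Leaving out 1 mouse gave 0 to 31 calls (0 to 22 higher, 0 to 9 lower), with 31 without mouse 29, 2 without mouse 31, 0 without mouse 33 and 1 without mouse 34. It stayed at 0 with B marker positive cells, with clone cells of like depth (4210 genes tested, 348 at an unadjusted p under 0.05) and with immunoglobulin genes kept. Without the replicate block it was 0, with 667 genes at an unadjusted p under 0.05, so the pairing by mouse changed no call. The cause of these changes was not tested. The mean non-clonal share was 1.40 to 4.21% without 1 mouse, the highest without mouse 27. For unrelated cells, leaving out 1 mouse gave 13 to 247 calls (10 to 148 higher, 3 to 99 lower), the lowest without mouse 33. Without immunoglobulin-rich cells as well it gave 115 to 229 calls (83 to 129 higher, 32 to 100 lower). These were added after seeing the data.

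Of the named genes' values, over all these settings, 1016 kept direction and side of the threshold, 110 gained significance, 24 lost it and 13 turned. Turned log2 fold changes were Cd79a (-0.014, no filter), Mzb1 (-0.21 without both classes, -0.15 the same by DESeq2), Creld2 (-0.12), Cd3g (-0.23) and Jchain (-0.39) without immunoglobulin-rich cells, Jchain without both classes (-1.17, and -1.73 by DESeq2), Rgs13 (-0.17 without mouse 31, in a range up to 3.15 without other mice) and Pecam1 (-0.56 without mouse 31, up to 1.201), Pecam1 without the block (-0.081), and Il7r (0.27 without clone-related cells, 0.62 with B marker positive cells as well). None of the 13 passed the threshold. Depth limits what can be said of Ighd and of the unswitched cells, at a median of 2007 UMIs.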
